A study of Glycine soja with 4 samples.

Results

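The legume and lineage-specific miRNAs of wild soybean (*Glycine soja*) roots were examined in 2 small RNA libraries, one from Al-free and one from Al-treated seedlings. Members were chosen by name alone. They were the listed miRNAs with a gso- or PN- prefix and a miRBase number of 1500 or more, without the families miR1507, miR1509, miR1510, miR1511, miR1514, miR2109, miR2111 and miR2218, and with their p3 and p5 strands. This gave 70 distinct sequences under 71 names, out of 217 distinct sequences in the lists, because PN-miR1520d and PN-miR1520g carried the same sequence. Of the 70, 59 had at least 1 Al-free read and 63 at least 1 Al-treated read. The sequences of 52 members are in the study's list of known miRNAs, and those of the other 18 are not. Where a pair of read counts is given below, the Al-free count comes first. Seedlings of the genotype BW69 were kept at pH 4.5 with 0 µM (Al-free) or 50 µM (Al-treated) AlCl3, and 10 cm of root from the apex was harvested at 7 times from 1 to 96 h. The times and several plants were pooled, so that each condition had 1 small RNA library and 1 degradome library. With no replicates, every interval and test below covers counting error between 2 libraries and not the spread between plants. The lists hold miRNA names only, so the root tissue could not be checked against marker genes.

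Plant miRNAs are cut from hairpin precursors by Dicer-like enzymes, and in Arabidopsis those of 20 to 22 nt that begin with U are mostly loaded into ARGONAUTE1, which cleaves or represses matching mRNAs. A separate Arabidopsis pathway makes 24-nt small RNAs from repeats and transposons with DICER-LIKE3. These are loaded into ARGONAUTE4, which favours a first A, and guide DNA methylation. miRBase numbers follow the order of registration, so high numbers are held mostly by miRNAs known from few species. Among them, miR1508 is known in soybean to target transcripts of pentatricopeptide repeat proteins, miR1515 has been linked to nodule number in soybean, and miR2119 targets alcohol dehydrogenase transcripts in common bean.

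The 13 members with at least 10 reads in a library, on which the tests below rest, are given 5′ to 3′ as the lists write them, with T for U and with the seed (bases 2 to 8) in capitals. The first 8 have 21 or 22 nt and the last 5 have 24 nt.
gso-miR1508a: tAGAAAGGgaaatagcagttg
gso-miR3522a: tGAGACCAaatgagcagctga
PN-miR4413: tAAGAGAAttgtaagtcactg
PN-mir4415-p3: tTGATTCTcatcacaacatgg
PN-miR1515: tCATTTTGcgtgcaatgatctg
PN-miR1523: tATGGGATaaatgtgagctca
PN-miR1513: tATGAGAGaaagccatgactt
PN-miR1535: cTTGTTTGtggtgatgtctag
PN-miR4345: aAGCTAAGacggaacttacaaaga
PN-miR4369: gGATCAAGctgatccggaagtgga
PN-mir1520i-p5: aCTGTCACgtgtcatgttctgatt
PN-miR1520l: cAATCAGAacatgacacgtgatag
PN-miR4352b: aAAATGTAgacattctaagacggt
Of the shorter 8, 7 begin with T. None of these 13 seeds is shared within the set. Over all 70 members there were 69 distinct seeds, and the only shared one was AATCAGA of PN-miR1520f and PN-miR1520l. The candidate PC-41-3p, with 19 reads in the Al-free and 20 in the Al-treated library, has it too.

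Most member reads came from a pair of 21-nt miRNAs. gso-miR1508a had 760 Al-free and 998 Al-treated reads. gso-miR3522a had 662 and 866. Together they held 75.6% of the 1881 Al-free and 68.5% of the 2723 Al-treated member reads. PN-miR4413 followed with 131 and 181 reads, PN-mir4415-p3 with 41 and 243, PN-miR1515 with 48 and 102, and PN-miR4345 with 72 and 64. The rest of the members were rare. In both libraries 57 of the 70 (81.4%) had fewer than 10 reads, and the median member had 2 Al-free and 3 Al-treated reads. The plot of reads by library shows this range.

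**Figure D1:**
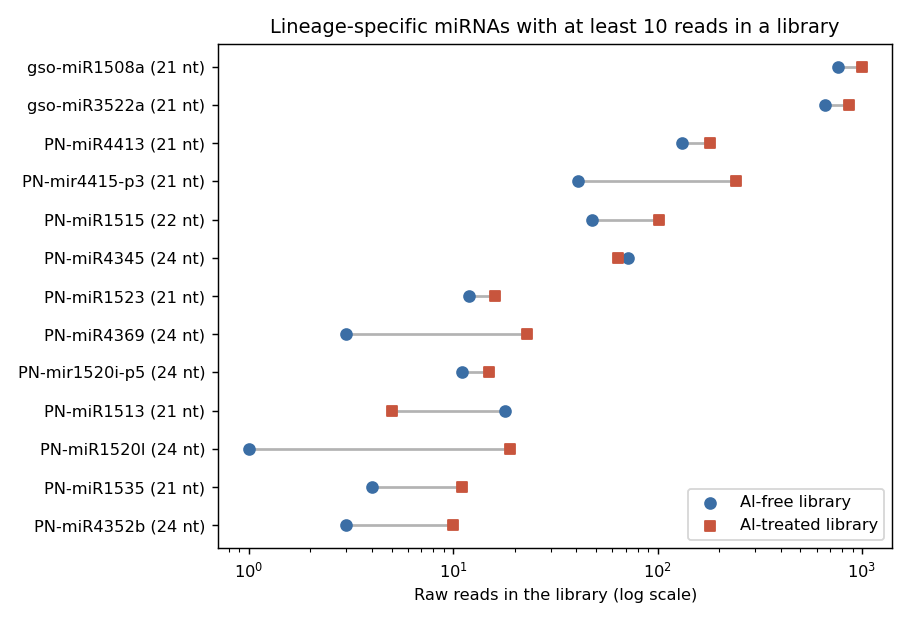
Raw reads (log axis) of the 13 members with at least 10 reads in a library, with the Al-free library as circles and the Al-treated library as squares. PN-mir4415-p3 (41 and 243), PN-miR4369 (3 and 23) and PN-miR1520l (1 and 19) lie farthest apart, and PN-miR1513 (18 and 5) and PN-miR4345 (72 and 64) are the 2 with more reads in the Al-free library.

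The members fell into 2 main length classes that differed in abundance and in first base. The 24-nt class held 44 sequences, 62.9% of the members, but 172 of the 1881 Al-free reads (9.14%) and 260 of the 2723 Al-treated reads (9.55%). The 20 to 22-nt class held 24 sequences with 1707 and 2461 reads. The single 23-nt sequence (PN-mir4364a-p5, 1 and 2 reads) and the single 25-nt sequence (PN-miR4378b, 1 and 0 reads) fell in neither. At least 10 reads in a library were reached by 5 of the 44 sequences of 24 nt and by 8 of the 24 of 20 to 22 nt, while 24 and 12 of them had at most 3 reads in either library. The most abundant 24-nt member was PN-miR4345, with fewer reads than the 3 leading 21-nt members in either library.

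The first base went with length. Of the 24-nt members, 26 of 44 (59.1%) begin with A and 10 (22.7%) with T. Of the 20 to 22-nt members, 14 of 24 (58.3%) begin with T and 5 (20.8%) with A. By reads the split was sharper, since sequences that begin with T held 98.8% of the 20 to 22-nt reads and those that begin with A held 75.9% of the 24-nt reads. The named strands alone gave like shares, with A in 17 of 28 (60.7%) of the 24-nt and T in 10 of 14 (71.4%) of the shorter ones. The median GC content was 43.8% (range 20.8 to 54.2%) at 24 nt and 38.1% (23.8 to 52.4%) at 20 to 22 nt. In the other groups of the lists the first base varied. At 20 to 22 nt, T began 32 of 53 (60.4%) of the conserved sequences and 12 of 31 (38.7%) of the PC candidates, the sequences deposited under candidate (PC) names, and in the other legume families A (7 of 16, 43.8%) was more frequent than T (6 of 16, 37.5%). Among named strands alone, however, T began 6 of 7 (85.7%) in the other legume families and 27 of 37 (73.0%) in the conserved ones. By reads over all strands, T held 87.7% in the other legume families, 97.5% in the conserved families and 27.2% in the PC candidates. At 24 nt, A began 15 of 33 (45.5%) of the PC candidates.

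**Figure D2:**
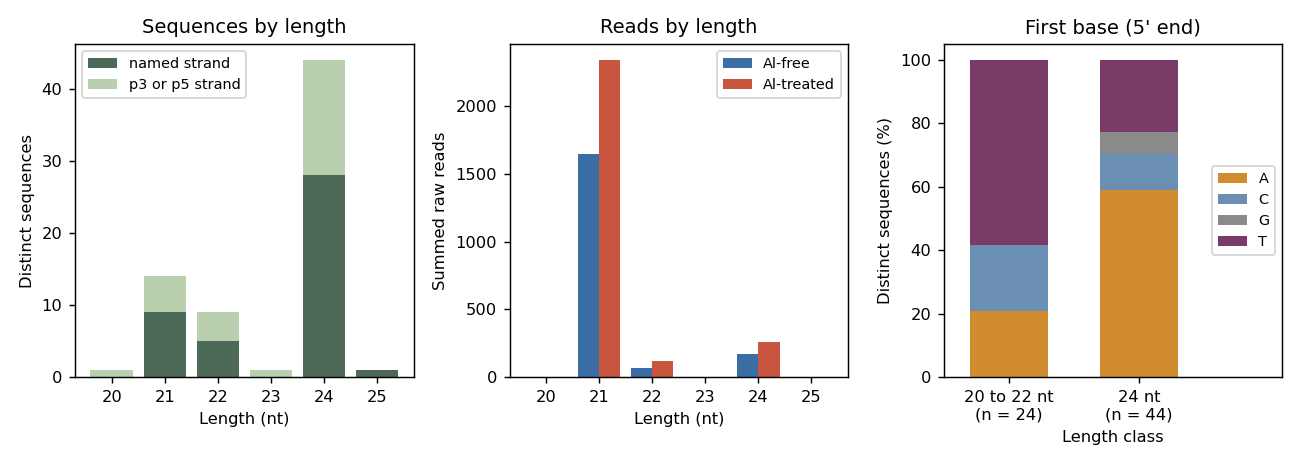
The left panel counts the distinct member sequences by length (nt), split into named strands and p3 or p5 strands, the middle panel gives their summed raw reads in each library, and the right panel gives the share (%) of sequences that begin with each base. The 24-nt class holds 44 of the 70 sequences and 21-nt sequences hold 1642 and 2339 of the reads, and A leads at 24 nt (59.1%) where T leads at 20 to 22 nt (58.3%).

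The comparison between the libraries asked which of these miRNAs changed in abundance under Al. Reads were normalized with the scaling of the study, which shifts every raw log2 ratio by -0.16, so that 52.8% of the raw reads of an unchanged sequence fall in the Al-treated library. The read minimum of the study, 10 reads in at least one library, was met by 13 members (18.6%), and only these were tested. The fold threshold of the study, a log2 ratio of 1 or more, or of -1 or less, was reached by 6 of the 13 (46.2%), against 40.7% of all 86 listed sequences that met the minimum. Of the 6, 5 were higher in the Al-treated library (38.5%, against 25.6% of all) and 1 was lower (7.69%, against 15.1%). The study's own list of responsive miRNAs holds PN-mir4415-p3 and PN-miR4369 of these, but not PN-miR1520l, PN-miR1513, PN-miR1535 or PN-miR4352b. A Benjamini-Hochberg adjusted p under 0.05 in the exact two-sided binomial test was reached by 7 of the 13 (53.8%, against 60.5%), 6 higher (46.2%, against 32.6%) and 1 lower (7.69%, against 27.9%). With 13 members, these shares were read as counts and no difference from the background was claimed. The median log2 ratio of the 13 was 0.31, beside 0.14 for all 86.

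PN-mir4415-p3, a 21-nt strand, differed most firmly. Its 41 Al-free and 243 Al-treated reads gave a ratio of normalized reads of 5.31 (95% Clopper-Pearson interval 3.80 to 7.58), or 2.41 on the log2 scale, with an adjusted p of 1.85e-30 in the exact binomial test. The whole interval lay past the fold threshold. The same held for a pair of 24-nt members with few reads. PN-miR4369 had 3 and 23 reads, a ratio of 6.87 (2.07 to 35.7) with an adjusted p of 0.000580, and PN-miR1520l had 1 and 19 reads, a ratio of 17.0 (2.70 to 707) with an adjusted p of 0.000172. With 3 and 1 reads on the Al-free side, the size of these last ratios was hardly fixed by the data.

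Of the other called members, PN-miR1515 was higher and PN-miR1513 lower in the Al-treated library. PN-miR1515, the 22-nt member with most reads, had 48 and 102, a ratio of 1.90 (1.34 to 2.74) just under the fold threshold, with an adjusted p of 0.000565. PN-miR1513 had 18 and 5 reads, a ratio of 0.249 (0.0722 to 0.695) with an adjusted p of 0.00581. It was the only member called lower. gso-miR1508a gave a ratio of 1.18 (1.07 to 1.29, adjusted p of 0.00171) and gso-miR3522a one of 1.17 (1.06 to 1.30, adjusted p of 0.00457), but both turned lower in the Al-treated library when the libraries were scaled to their summed listed reads (log2 ratio of -0.16 for each). Neither passed the test under median of ratios (adjusted p of 0.0820 and 0.124) or TMM scaling (0.358 and 0.423), so that their calls as higher were lost under 3 of 5 other scalings. PN-miR1515 lost its call when the libraries were scaled to their summed listed reads (adjusted p of 0.0573). The calls of PN-mir4415-p3, PN-miR4369, PN-miR1520l and PN-miR1513 held under all 5 other scalings tried.

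The remaining 6 tested members did not pass the test. PN-miR1535 had 4 and 11 reads, with a ratio of 2.46 (0.730 to 10.6), and PN-miR4352b had 3 and 10, with a ratio of 2.99 (0.769 to 16.9). Both lay past the fold threshold with intervals that spanned no change, at adjusted p-values of 0.173 and 0.141. PN-miR4413 gave a ratio of 1.24 (0.983 to 1.56) and passed the test when scaled by clean reads (log2 ratio of 0.42, adjusted p of 0.0217). PN-miR4345 gave one of 0.796 (0.559 to 1.13) and passed it as lower when scaled to the summed listed reads (log2 ratio of -0.72, adjusted p of 0.00709). PN-miR1523 had 12 and 16 reads and PN-mir1520i-p5 had 11 and 15, with intervals from 0.530 to 2.77 and from 0.524 to 2.94. For these last, a direction was not detectable at this depth.

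**Figure D3:**
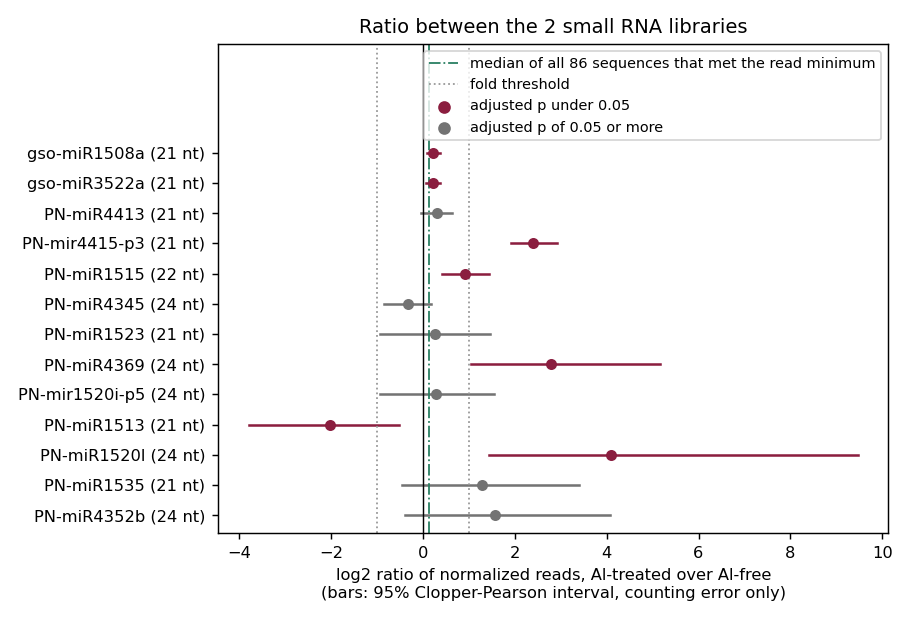
For the 13 tested members, normalized Al-treated over Al-free reads as a log2 ratio, with the 95% Clopper-Pearson interval, beside the fold threshold (dotted) and the median of all 86 tested sequences (0.14, dash-dotted). The intervals of PN-mir4415-p3, PN-miR4369 and PN-miR1520l lie wholly above 1, and PN-miR1513 is the only called member below 0.

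Summed over the members, normalized reads were 1.30 times as high in the Al-treated as in the Al-free library (1.22 to 1.38), a log2 ratio of 0.37, which became -0.02 when the libraries were scaled to their summed listed reads. As a share of all listed reads the members held 6.19% (5.92 to 6.46%) under Al-free and 6.12% (5.90 to 6.35%) under Al-treated conditions. The length classes had nearly the same ratio, 1.35 (1.11 to 1.65) at 24 nt and 1.29 (1.21 to 1.37) at 20 to 22 nt, and scaling to the listed reads turned the shorter class to a log2 ratio of -0.02 and left the 24-nt class at 0.05. Both sums leaned on few sequences. Without PN-miR1520l and PN-miR4369 the 24-nt ratio was 1.16 (0.946 to 1.43), and without PN-miR4345 it was 1.76 (1.37 to 2.26). Without gso-miR1508a and gso-miR3522a the 20 to 22-nt ratio was 1.88 (1.63 to 2.17), and it was 1.30 (1.10 to 1.54) when PN-mir4415-p3 was left out too. The 57 members under 10 reads summed to 115 and 170 reads, a ratio of 1.32 (1.04 to 1.69). More normalized reads in the Al-treated library were found for 45 of the 70 members (64.3%, against 56.2% of all 217 sequences) and for 28 of the 44 of 24 nt (63.6%, against 57.7% of all 78 of that length). Scaled to the listed reads, these counts were 36 and 24.

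Strands were paired by name, and the strand with most reads differed among the pairs. In 26 pairs both the named strand and its p3 or p5 partner were listed, and PN-mir1517-p3 (0 and 2 reads) was listed without its named strand. The named strand dominated in the abundant 21 and 22-nt pairs. The partner held 0.783% (95% Clopper-Pearson interval 0.288 to 1.70%) of the Al-free reads of the gso-miR1508a pair and 0.795% (0.344 to 1.56%) of its Al-treated reads. It held 1.50% (0.183 to 5.33%) and 1.63% (0.338 to 4.69%) of the PN-miR4413 pair, 0% (up to 7.40%) and 0.971% (0.0246 to 5.29%) of the PN-miR1515 pair, and 0.451% (0.0931 to 1.31%) and 0% (up to 0.425%) of the gso-miR3522a pair. In each of these pairs the intervals of the libraries overlapped.

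The miR4415 hairpin was the reverse, as the paper had also reported. The paper proposes that the p3 sequence might be the true mature miRNA, and lists this pair among those that met strict annotation criteria. PN-miR4415, the strand that carries the plain name, had 0 reads in the Al-free and 2 in the Al-treated library, beside 41 and 243 for PN-mir4415-p3, so the p3 strand held 100% (91.4 to 100%) and 99.2% (97.1 to 99.9%) of the pair. The pair and the PN-miR4413 pair are shown with their longest complementary run in capitals.
PN-miR4415: aaGTTGTGATGAGAATCAAtg
PN-mir4415-p3: TTGATTCTCATCACAACatgg
PN-miR4413: taAGAGAATTGTAAGTCACTG
PN-mir4413-p3: taCAGTGACTTACAATTCTCT
A cut by a Dicer-like enzyme leaves 2 unpaired bases at each 3′ end of a duplex. Taking the longest run as the register, the miR4415 strands paired over 17 bases with 2-base overhangs at both 3′ ends, and the gso-miR1508a and gso-miR3522a pairs gave the same overhangs from runs of 9 and 10 bases. The PN-miR4413 strands paired over 19 bases with the 2 unpaired bases at the 5′ ends instead. All 7 pairs with both strands of 20 to 22 nt had a complementary run of at least 9 bases, with a median of 12, against 3 of the 14 pairs with both strands of 24 nt, with a median of 7.5. None of these 3 (PN-miR4360, PN-miR4373 and PN-miR4383) had the 2-base overhangs. Of the 7 shorter pairs, PN-miR1515, PN-miR1516, PN-miR1523 and PN-miR4413 also lacked them at one or both 3′ ends.

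Among the 24-nt pairs other than PN-miR4345, no strand dominated as clearly. Most of these pairs rest on their names. The longest complementary run was 8 bases for PN-miR1520i, 6 for PN-miR4343a, 4 for PN-miR1520l and 3 for PN-miR4399. A duplex of their strands was thus not shown, and their shares need not be those of 1 hairpin. Over all 26 pairs, the p3 or p5 partner held more reads than the named strand in 5 pairs among Al-free and in 7 among Al-treated reads, and in 3 pairs (PN-miR4415, PN-miR1520i and PN-miR4343a) in both. PN-mir1520i-p5 had 11 and 15 reads where PN-miR1520i had 0 and 4, and PN-mir4343a-p3 had 8 and 7 where PN-miR4343a had 1 and 6. PN-mir4399-p5 had 1 and 9 reads where PN-miR4399 had 5 and 3, so its share was 16.7% (0.421 to 64.1%) in the Al-free and 75.0% (42.8 to 94.5%) in the Al-treated library. PN-mir1520l-p5 had 3 and 2 reads beside 1 and 19 for PN-miR1520l, a share of 75.0% (19.4 to 99.4%) and 9.52% (1.17 to 30.4%). In both pairs the intervals of the libraries overlapped. In the PN-miR4345 pair the 21-nt p3 strand had 1 and 4 reads beside 72 and 64.

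**Figure D4:**
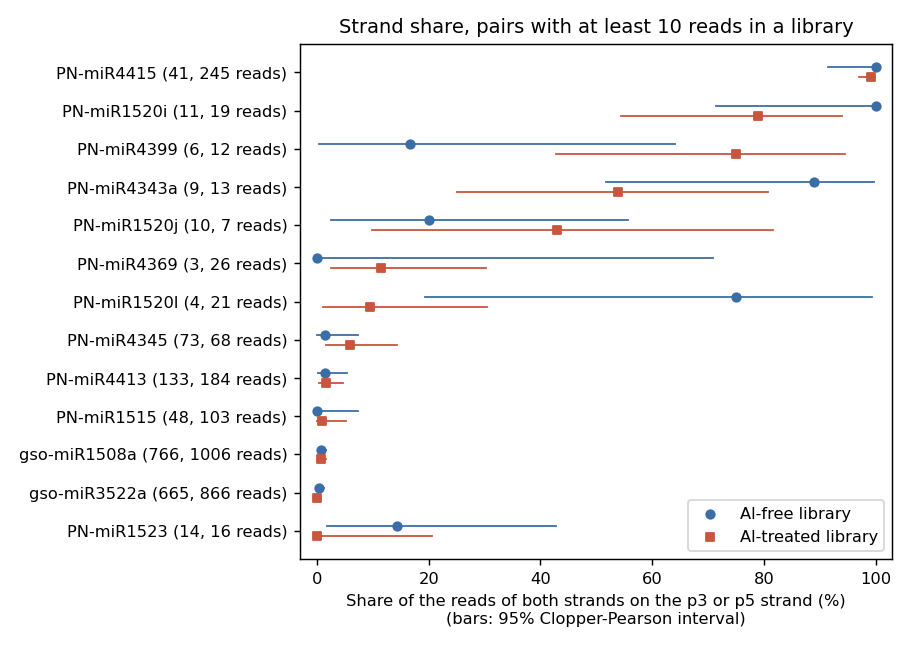
Share (%) of the reads of a strand pair that lay on the p3 or p5 strand, with 95% Clopper-Pearson intervals, for the pairs with at least 10 reads in a library (circles Al-free, squares Al-treated). The p3 strand of miR4415 held 100% and 99.2%, the partners of gso-miR1508a, gso-miR3522a, PN-miR1515 and PN-miR4413 held under 2%, and most pairs with 24-nt named strands lie between with wide intervals.

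The largest family was miR1520, with 10 distinct sequences under 11 names, all of 24 nt, and the only one with more than 1 distinct named strand. The paper also calls this family the largest, though it gives the conserved miR156 family more members. It counts p3 and p5 strands apart, and fewer miR1520 members than the 6 distinct named strands here. The miR1520 sequences are printed with the longest run shared with PN-miR1520d and PN-miR1520g in capitals. The direction is the same for all but PN-miR1520i and PN-mir1520i-p5, where the run is its reverse complement.
PN-miR1520d and PN-miR1520g: AATCAGAACATGACACGTGACAAT
PN-miR1520l: cAATCAGAACATGACACGTGAtag
PN-miR1520f: cAATCAGAACATGACACatgacaa
PN-miR1520m: tcAATCAGAACATGACAtgtgaca
PN-mir1520i-p5: acTGTCACGTGTCATGTTCTGATT
PN-miR1520i: aacgTGTCACGTGacggtcaacat
PN-miR1520j: agaACGTGACAcatgacaatcaac
PN-mir1520j-p5: actcCATGAaagatgaaatgcatt
PN-mir1520l-p5: attggtcaatgaaaacaACAATgc
PN-mir1520m-p5: attggatgATGACtgttacgtgcc
PN-miR1520d and PN-miR1520g, f, l and m thus share one core of at least 15 bases, which is present as its reverse complement in PN-mir1520i-p5 over 22 bases of PN-miR1520d and PN-miR1520g. The p5 sequences of j, l and m each share at most 5 bases in a row with PN-miR1520d and PN-miR1520g. PN-miR1520j is joined to PN-miR1520f by a run of 13 bases.

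Despite the shared core, these sequences differed in their reads. PN-miR1520l went from 1 read in the Al-free to 19 in the Al-treated library, while PN-miR1520d and PN-miR1520g, which match it over 20 bases, had 5 and 9. PN-miR1520f, with the same seed as PN-miR1520l, had 4 and 5, and PN-miR1520m had 1 and 3. PN-miR1520j had 8 and 4 reads, PN-mir1520j-p5 had 2 and 3, and PN-mir1520m-p5 had 2 and 2. Only PN-miR1520l and PN-mir1520i-p5 met the read minimum. The family as a whole had 37 and 66 reads, a ratio of 1.60 (1.05 to 2.46), and without PN-miR1520l it had 36 and 47, a ratio of 1.17 (0.741 to 1.86). PN-miR1520l therefore supplied most of the family's difference. The genome positions of these sequences were not analysed here.

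**Figure D5:**
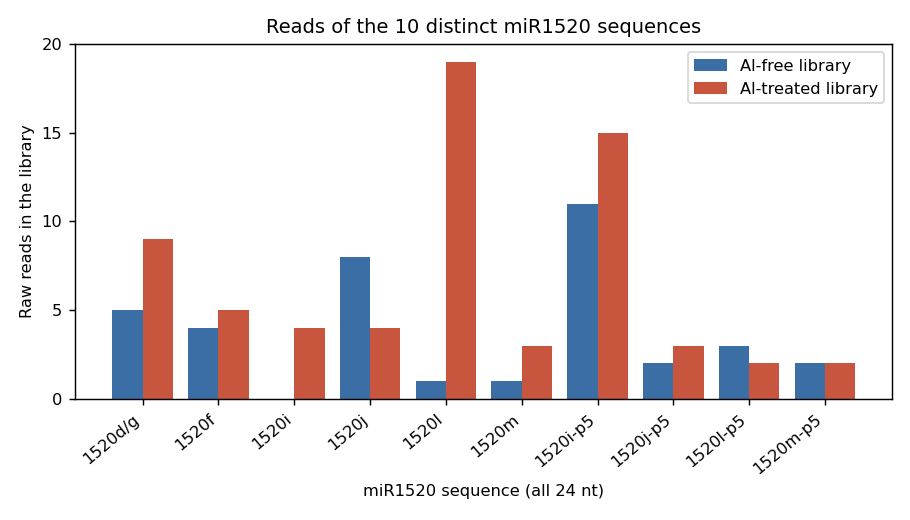
Raw reads of the 10 distinct miR1520 sequences by library (Al-free, Al-treated), named strands first and p5 strands after them, with 1 bar per library. PN-miR1520l has 1 and 19 reads and PN-miR1520i has 0 and 4, while the other 8 differ by at most 4 reads.

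Shared stretches were not confined to miRNAs with the same number. Runs of at least 12 identical bases, in the same or the reverse complement direction, joined 27 pairs of members, 10 of them between different numbers, and took in 18 of the 44 members of 24 nt (40.9%) and 8 of the 24 of 20 to 22 nt (33.3%). The 8 shorter ones were joined only to their own partner strands (PN-miR1515, PN-miR1523, PN-miR4413 and PN-miR4415). No member of 20 to 22 nt was in the 10 pairs between different numbers. PN-miR4360 and PN-miR4373 are the same sequence moved by 1 base, with 23 bases in common, and PN-mir4360-p3 is the reverse complement of PN-miR4360 over 23 bases. The shared run is in capitals.
PN-miR4373: aAGTTGACGTACGTACGGATTGAC
PN-miR4360: AGTTGACGTACGTACGGATTGACa
PN-mir4360-p3: tTGTCAATCCGTACGTACGTCAAC
Their reads were near each other, with 7 and 8 for PN-miR4373, 4 and 7 for PN-miR4360 and 0 and 2 for PN-mir4360-p3. PN-mir4373-p3, with 1 and 0 reads, joins them by runs of 13 and 12 bases. Across numbers, PN-miR4352b and PN-miR4378b (1 and 0 reads) also share a run of 12 bases as reverse complements.

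A further group of 24-nt members shares a stretch around the letters GGATCAA, a motif chosen after the sequences and their reads had been seen. PN-miR4343a, PN-miR4347, PN-mir4343a-p3, PN-mir4347-p3 and PN-mir4369-p5 were joined by runs of 12 to 14 bases, and they had 12 and 25 reads in sum. The motif, searched on both strands with no overlap between matches, is in 9 of the 217 sequences (4.15%) and in 8 of the 78 of 24 nt (10.3%). The 5 members that hold it are given with the motif, or its reverse complement TTGATCC in PN-mir4369-p5, in capitals.
PN-miR4343a: aaaaaacttacGGATCAAattgat
PN-miR4347: aagcttcttacGGATCAAgttgat
PN-mir4347-p3: agaagcttgcGGATCAAtttgatc
PN-miR4369: GGATCAAgctgatccggaagtgga
PN-mir4369-p5: gatcaacTTGATCCggaagagact
PN-miR4343a had 1 and 6 reads, PN-miR4347 had 3 and 6, PN-mir4347-p3 had 0 and 3, PN-miR4369 had 3 and 23, and PN-mir4369-p5 had 0 and 3. The first of each pair of counts, from the Al-free library, was the lower in all 5. PN-mir4343a-p3, which the runs join to the group but which lacks the motif, went the other way with 8 and 7 reads. Only PN-miR4369 met the read minimum, and the others were not tested.

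The remaining families with both strands listed were at the edge of detection. PN-miR4371b had 1 and 4 reads and its p3 strand 0 and 2, and PN-miR4406 had 1 and 3 with the same counts for its p3 strand. PN-miR4358 had 1 and 3 reads beside 0 and 1 for its p5 strand, and PN-miR2107 had 1 and 0 beside 1 and 3 for its p3 strand. None of these exceeded 4 reads in a library. PN-miR4364a had 3 and 1 reads beside 1 and 2 for its p5 strand, PN-miR4400 had 2 and 1 beside 0 and 1, PN-miR4383 had 1 and 0 beside 1 and 1, PN-miR1516 had 1 and 1 on each strand, and PN-miR2119, of the family known for alcohol dehydrogenase in bean, had 1 and 1 beside 0 and 1. The partner strands of the tested members were as rare, with 6 and 8 reads for gso-mir1508a-p5, 2 and 3 for PN-mir4413-p3, 3 and 0 for gso-mir3522a-p3, 2 and 0 for PN-mir1523-p3 and 0 and 1 for PN-mir1515-p3. The families with 1 sequence that were not tested had at most 9 reads, led by PN-miR4370 with 3 and 9.

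Detection in only 1 library rested on few reads. Of the 70 members, 18 (25.7%, against 12.0% of all 217 sequences) had no read in one library, 11 of them without Al-free reads (against 7.83% of all sequences) and 7 without Al-treated reads (against 4.15%). The 217 include 74 PC candidates, all with at least 10 reads in a library, of which only 2 had no read in one library. The shares over all sequences are therefore not a like background for the members. A count of 0 allows up to 3 reads. Only PN-miR1520i, with 0 and 4 reads, exceeded that in the other library, and the interval of its ratio reached down to 0.591, so that a difference was not detectable at this depth. No member that was absent from the Al-treated library had more than 3 reads in the other.

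Compared with the rest of the lists, these miRNAs were many but rare. The other legume families left out by the rule, such as miR2218, had 18 sequences with medians of 161 and 282 reads, and 83.3% of them met the read minimum. The conserved families had 55 sequences with medians of 10 and 9 reads, and 50.9% met it. The members, 70 sequences, had medians of 2 and 3 reads, and 18.6% met it. They also supplied 44 of the 78 sequences of 24 nt in the lists, where the other legume families supplied 1 and the PC candidates 33. The PC candidates had at least 10 reads in a library without exception, so their medians cannot be set beside those of the members. None of the 46 lines of the Al-free and 85 lines of the Al-treated degradome target list named a member, which leaves these miRNAs without a cleaved target in the lists.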

How the data were processed

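Small RNA counts from 1 Al-free and 1 Al-treated library were analysed. The authors removed short, junk and adaptor-less reads and reads that hit repeats, Rfam or mRNA, assigned what remained to miRBase entries with ACGT101-miR 4.2, and deposited raw read counts per name and sequence, without normalization. Removal of repeat matches can lower the reads of repeat-derived 24-nt sequences. In the study, however, this step took few reads, while removal of mRNA matches took most of the clean reads. The deposited degradome lists (CleaveLand 3.0 and ACGT301-DGE 1.0) hold names of miRNAs and targets and no other value.

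Each distinct sequence was counted once. The listed reads summed to 30411 (Al-free) and 44493 (Al-treated), which set the precision. Counts were scaled with the ratio of normalized to raw reads that the study gives for gso-miR2218. Exact two-sided binomial tests, adjusted by Benjamini-Hochberg over all sequences with at least 10 reads (PC candidates 20) in a library, and 95% Clopper-Pearson intervals were obtained in Python 3.11.15 (NumPy 2.4.6, SciPy 1.17.1) and checked on simulated counts. edgeR 4.0.16 in R 4.3.3 gave TMM factors only, since a count model needs replicates. Figures were drawn with matplotlib 3.10.9. Intervals cover counting error only and treat reads as independent. PCR copies are not independent molecules, so the intervals may be too narrow even for counting error.

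Named members were those with at least 10 reads in a library, in a family of several sequences, sharing a run of at least 12 bases, or with 0 reads in one library and more than 3 in the other. The members and lists were chosen with earlier results of these data known. Alternatives were other scalings, read minimums, a pseudocount of 1, counting by name, Fisher's exact test, other length classes, detection limits and shared runs. Genome positions, raw reads and qRT-PCR were not analysed here.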

Additional observations from a re-analysis of the deposited data

How the results depend on the processing

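No paired analysis was possible because each condition had 1 library and the labels give no replicate numbers. Of 65 repeats of the 13 tested log2 ratios under 5 other scalings, 53 kept direction and side of the adjusted p of 0.05, 5 were weaker, 2 stronger and 5 reversed. Both direction and side were kept throughout by 6 of the 13 sequences. The fold threshold was crossed by PN-miR1535 (0.91 by listed reads) and PN-miR1515 (1.04 by clean reads), so that the count past it was 5 and 7 there. The reversals came with scaling to the summed listed reads, which shifted every log2 ratio by -0.39 and put the median of all 86 tested sequences at -0.25. Ratios there were -0.16 for gso-miR1508a and -0.16 for gso-miR3522a, -0.08 for PN-miR4413, -0.10 for PN-mir1520i-p5 and -0.13 for PN-miR1523, and the summed member reads gave -0.02. In that scaling 3 members were called higher and 4 lower, as with Fisher's exact test against the other listed reads. The summed ratio was 0.48 by clean reads, 0.28 by the median of ratios, 0.22 by TMM, 0.75 without gso-miR1508a and gso-miR3522a and 0.26 without p3 and p5 strands. The count past the fold threshold, 6, was 2 with a minimum of 20 reads, 1 with the minimum in both libraries and 22 with none. The count with an adjusted p under 0.05, 7, was 4 with the minimum in both libraries. A shared run of 15 bases left 15 pairs in place of 27. An alternative chosen after seeing the data added 9 sequences listed as PC candidates that the study names by the rule, among them miR862, and gave 9 members past the fold threshold with the minimum of 20 reads for PC names, or 10 with that of 10 reads for known names, 10 with an adjusted p under 0.05 under either minimum and a summed ratio of 0.46. Depth limited the 57 members under 10 reads, which were not tested.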

Other observations

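The family miR862, which the rule includes, is not among the deposited gso and PN names. Its sequences are in the lists as PC-6a-3p and PC-6b-3p, which share the 21-nt sequence gCTGGATGtctttgaaggaat (seed in capitals) and had 113 Al-free and 355 Al-treated reads, with a log2 ratio of 1.49 (1.18 to 1.81, adjusted p of 7.35e-24 in the exact binomial test). The partner PC-6a-5p and PC-6b-5p, tCCCTCAAaggcttccagtat, had 13 and 18 reads. The study names the sequence of PC-6a-3p and PC-6b-3p PN-miR862a and PN-miR862b. Unlike these reads, the paper's qRT-PCR showed no change of PN-miR862a under Al. In all, 9 sequences deposited as PC candidates carry a name with a number of the rule in the study's list of known miRNAs. PC-19-5p, named there PN-miR4387e-p5, had 11 and 49 reads (log2 ratio of 2.00, 1.03 to 3.09, adjusted p of 1.14e-05), and PC-63-3p, named PN-miR5044, had 25 and 8 (log2 ratio of -1.80, -3.16 to -0.61, adjusted p of 0.00277). PC-16-5p (21 and 24 reads) and PC-62-3p (14 and 20) did not pass the test, and PC-18-3p (4 and 14), PC-49-3p (8 and 14) and PC-66a-5p with PC-66b-5p (10 and 8) were under the minimum of 20 reads for PC names.

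The group of 24-nt members around GGATCAA goes on among the PC candidates. PC-12-5p had 0 reads in the Al-free and 12 in the Al-treated library, PC-30-3p had 0 and 11, and PC-67a-3p with PC-67b-3p, 1 sequence, had 2 and 19. All share runs of at least 12 bases with the group, and the motif is in capitals.
PC-12-5p: aaatctacatgcGGATCAAgttga
PC-30-3p: aaggcttacGGATCAAgttggtat
PC-67a-3p and PC-67b-3p: aattaacttacGGATCAActtgat
With the 5 members joined by runs, which include PN-mir4343a-p3 and not PN-miR4369, the 8 sequences had 14 and 67 reads. A PC candidate entered the lists only with at least 10 reads in a library, so such sequences, once low in one library, had to be high in the other, and the sum was not tested. PN-mir4406-p3 (1 and 3 reads) likewise shares a run with PC-31-5p (2 and 11) and PC-37-5p (25 and 30), and PN-miR1513 (18 and 5) shares one with PC-49-3p (8 and 14). The GGATCAA motif is also held, as its reverse complement, by the 21-nt candidate PC-62-3p (14 and 20 reads), which is not among the 8 sequences. Its log2 ratio was 0.36 (-0.70 to 1.45, adjusted p of 0.571 in the exact binomial test).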
